A study of Notophthalmus viridescens with 12 samples.

Results

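The dorsal iris of the newt *Notophthalmus viridescens* was compared between 1 day post-lentectomy (dpl) and the intact state, using 6 of the 12 libraries of a time course of bulk RNA sequencing. Lentectomy is the surgical removal of the lens. The libraries were chosen by their labelled time point, and the transcripts by a detection rule that did not use the direction of change: 851483 of 856451 assembled transcripts reached a value of 1 in at least 3 of the 6 libraries and were tested. The 1 dpl group comprised 3 libraries from lentectomized eyes and the intact group 3 libraries from animals without surgery. All animals were adult, wild-caught and without any genetic modification named in the labels, and each library pooled the dorsal irises of both eyes from 3 or 4 animals, so that differences between single animals were averaged within a library. The other 6 libraries, 3 each from 6 h post-lentectomy (hpl) and 4 dpl, entered the fit and were used to follow the same transcripts in time.

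Newts replace a lost lens from the pigment epithelium of the dorsal iris, whose cells lose their pigment, re-enter the cell cycle and turn into lens cells. In the first days after surgery the tissue is in a phase of wound healing, in which blood cells enter the eye, inflammatory signals are made and the extracellular matrix is remodelled, before a lens vesicle is seen. The day after lentectomy therefore falls before any visible lens. Transcripts in this data set carry only an ID, which the table did not pair with a gene name, and 0 IDs could be matched to one. Which genes changed, and whether markers of the iris or of blood cells were present, could thus not be read from these values. What follows describes the size, direction, abundance and time course of the change. In bulk tissue, fewer cells of a type and less RNA per cell cannot be told apart.

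Values are a normalised abundance per transcript, which the authors describe as TPM. They summed to far more than 1000000 per library, so the name does not settle whether they are scaled to transcript length. The sum over a library was 33480000 ± 5000000 at 1 dpl and 33320000 ± 2470000 in intact iris (SD, n = 3 each, exact permutation test, p = 1, where 0.1 is the smallest p that 3 against 3 allows). Between 813190 and 828560 transcripts were detected at a value of 1 or more at 1 dpl, against 820156 to 831202 in intact iris (exact permutation test over 3 and 3 libraries, p = 0.3). The read depth behind a value cannot be recovered from the table. Single libraries stood apart in some respects. At 1 dpl, replicate 2 had the lowest sum, 27737613. Transcripts at 10 times or more the mean of the other 2 libraries of the group numbered 1895, 1361 and 1007 in 1 dpl replicates 1, 2 and 3, against 4662, 575 and 984 in intact replicates 1, 2 and 3, so that intact replicate 1 stood out.

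The comparison asked how far the transcriptome of the dorsal iris had moved from the uninjured state by the day after lens removal. A transcript was called when the limma adjusted p (Benjamini-Hochberg, over all transcripts tested) was under 0.05. At 1 dpl, 30466 transcripts were called (3.58% of those tested), of which 16608 were higher (1.95%) and 13858 lower (1.63%) than in intact iris. Before adjustment, 137082 transcripts had a p under 0.05. The median log2 difference was 2.40 among the higher calls and -2.65 among the lower ones, with a median standard error of 0.54. No overlap between the 1 dpl and intact values was found in 30168 of the calls (99%), 16410 higher and 13758 lower, while values were also free of overlap in 19.1% of all transcripts tested (9.48% higher and 9.65% lower). Calls were picked on these same values, so their separation follows largely from selection and is a description.

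**Figure D1:**
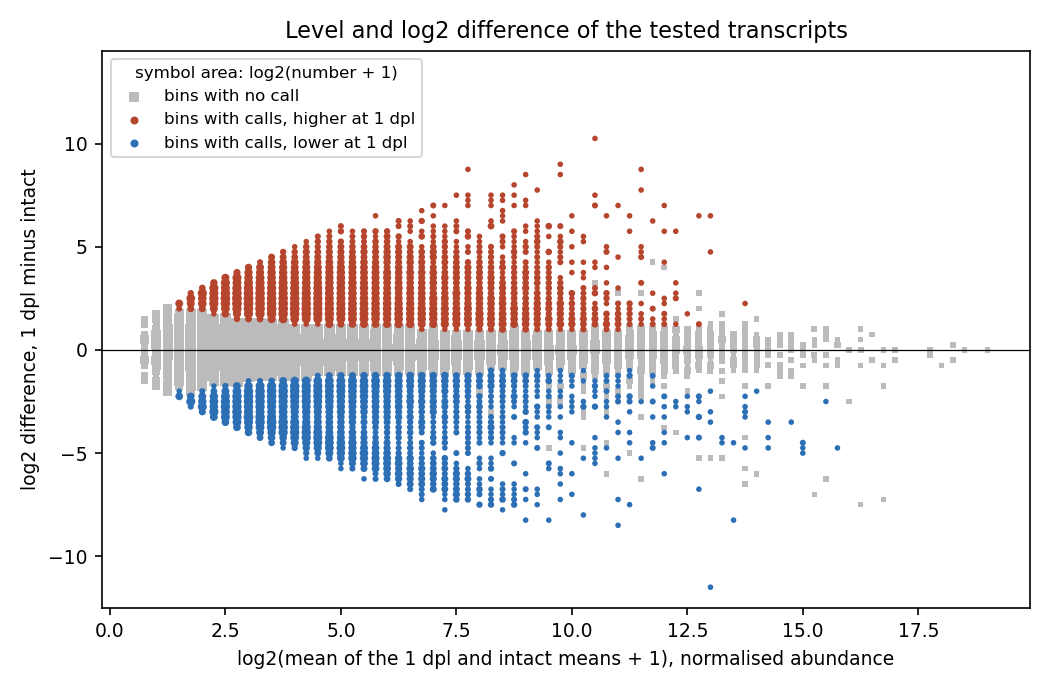
Log2 difference of 1 dpl minus intact (y axis, log2 units) against the level of a transcript (x axis, log2 of the mean of the 1 dpl and intact means plus 1), with transcripts grouped in bins of 0.25 units. Symbol area follows the log2 number of transcripts in grey bins and of calls in red and blue bins. Red and blue bins hold transcripts called higher or lower at 1 dpl and grey bins hold none; calls ran from -11.49 to 10.29 log2 units.

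By size, lower calls reached further than higher ones in the full fit. Log2 differences of 5 or more (32-fold on the scale of value plus 1) were seen in 763 lower and 220 higher calls, whereas differences under 2 log2 units made up 2978 lower and 4545 higher calls. In the range from 7 log2 units upward there were 47 lower and 24 higher calls. These counts by size were not computed in the alternative fits. Among lower calls, 2438 had a single intact library at 10 times or more the mean of the other 2. Among higher calls, 13 had such a 1 dpl library. Whether these transcripts account for the difference in size was not tested. No call was smaller than 1.03 log2 units, so no difference of less than 2-fold on the scale of value plus 1 was called at this threshold. A limit of detection was not tested.

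Neither the number of calls nor the majority direction was stable. A transcript was called in the full comparison and again after the omission of each of the 6 libraries in 7969 cases (26.2% of the calls), 5778 higher and 2191 lower. The count was 19785 without 1 dpl replicate 1, 16588 without 1 dpl replicate 3, and 15520, 13727 and 15806 without intact replicates 1, 2 and 3. Higher calls made up 54.5%, but 45.7% without 1 dpl replicate 1 and 45.6% when libraries were scaled on abundant transcripts, a scaling that moved the median log2 difference of all transcripts to -0.131 from the deposited -0.014. They made up 64.0%, 73.9% and 74.2% without intact replicates 1, 2 and 3, where 5590, 3579 and 4073 lower calls were left against 13858. When the fit held only the 6 libraries compared, 19906 transcripts were called, 52.4% of them higher.

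Calls were more frequent among abundant transcripts. With abundance taken as the mean of the 1 dpl and intact means, 1.93% of 504810 transcripts under 10 were called, 5.56% of 312591 between 10 and 100, 9.79% of 30782 between 100 and 1000, and 9.70% of 3300 at 1000 or more. In the same 4 classes, values of the groups did not overlap in 18.6%, 19.8%, 20.4% and 22.0% of the transcripts. The direction of the calls differed between classes. Higher calls made up 53.9% and 52.0% in the lower 2 classes, 70.3% in the class from 100 to 1000 and 60.9% at 1000 or more. Under the scaling on abundant transcripts, 61.5% of the calls at 100 or more were higher, against 69.4% as deposited. This share was above that of all calls in the full comparison, but not without intact replicate 2 (71.7% against 73.9%) or intact replicate 3 (73.5% against 74.2%). With libraries scaled to a sum of 1000000 it was also below (47.1% against 63.3%). On that scale a mean of 100 marks a different set of transcripts, with 119 calls. On the deposited scale the calls at 100 or more numbered 3334, and 2184 without 1 dpl replicate 3 or 2206 without intact replicate 2. Without 1 dpl replicate 2 they numbered 4666, of which 80% were higher. The median standard error fell with abundance, from 0.584 in the lowest class to 0.353 in the highest, so smaller differences could be called there.

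**Figure D2:**
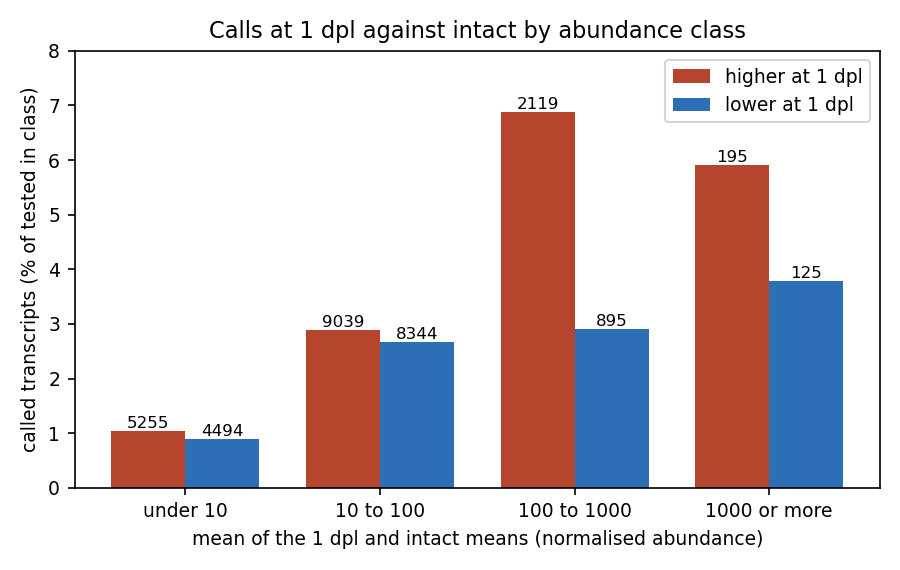
Called transcripts as a percentage of those tested (y axis) in 4 classes of abundance (x axis, mean of the 1 dpl and intact means); red bars are higher and blue bars lower at 1 dpl, with the number of calls above each bar. Higher calls exceed lower ones most clearly between 100 and 1000, with 2119 against 895.

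The spread between replicates was wider at 1 dpl than in intact iris by its median, a difference that was not tested. Over all transcripts tested the median SD of the log2 values was 0.608 at 1 dpl and 0.550 in intact iris. In the class from 100 to 1000 it was 0.547 and 0.390, and at 1000 or more 0.558 and 0.348. These SDs were taken without further scaling and thus include differences in scale between libraries. The factors of the scaling on abundant transcripts ran from 0.854 to 1.178 at 1 dpl and from 1.07 to 1.108 in intact iris. Pearson's r of log2 values across transcripts, which are not independent replicates, lay between 0.739 and 0.771 for the 3 pairs of 1 dpl libraries and between 0.747 and 0.814 for the 3 intact pairs. For the 9 pairs of a 1 dpl and an intact library it lay between 0.607 and 0.719, below every pair within a group.

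Among called transcripts, losses of abundance at 1 dpl were concentrated in few, and gains were spread over many. The 20 called transcripts with the largest fall in group mean made up 39.2% of the summed loss over all lower calls, while the 20 with the largest rise made up 9.54% of the summed gain over all higher calls. These 40 transcripts were selected on the 1 dpl and intact values, so their levels in these groups are a description. The 20 losses summed to 42924, 87901 and 70613 in the 1 dpl libraries, against 1143414, 667200 and 666934 in the intact ones. This was between 0.120% and 0.317% of the library sum at 1 dpl and between 1.84% and 3.56% in intact iris. Intact replicate 1 held the highest sum. With 20 losses called in the full comparison, 13 were called without any 1 of the intact libraries, 12 without 1 dpl replicate 1 and 13 without 1 dpl replicate 3.

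Each of the 20 losses stood at 0.357% to 26.4% of its intact mean at 1 dpl, with a median of 4.32%. The 6 hpl and 4 dpl values did not enter the ranking by group mean, but these libraries shared the estimate of spread behind the calls. At 4 dpl, 19 of the 20 were back at 69.0% or more of the intact mean, with a median over the 20 of 110%, and the exception stood at 19.6%. At 6 hpl the libraries disagreed: replicate 1 was higher than both other replicates in 20 of 20, at a median of 46.2% of the intact mean, against 3.57% for the mean of replicates 2 and 3. Their sums were 399633, 25291 and 68469 in 6 hpl replicates 1, 2 and 3 and 806945, 1195714 and 701949 in the 4 dpl libraries. These 20 called losses were thus low in all 3 libraries at 1 dpl and in 2 of 3 at 6 hpl. At 4 dpl, 19 of them were at 69.0% or more of the intact mean. Between 4 dpl and 6 hpl, limma called 18 of the 20 higher and 0 lower, while 2.04% of all transcripts tested, and 7.45% of those with a mean of 1000 or more, were called higher there. Without 6 hpl replicate 1, all 20 were called lower at 1 dpl. The cause of this pattern was not tested.

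**Figure D3:**
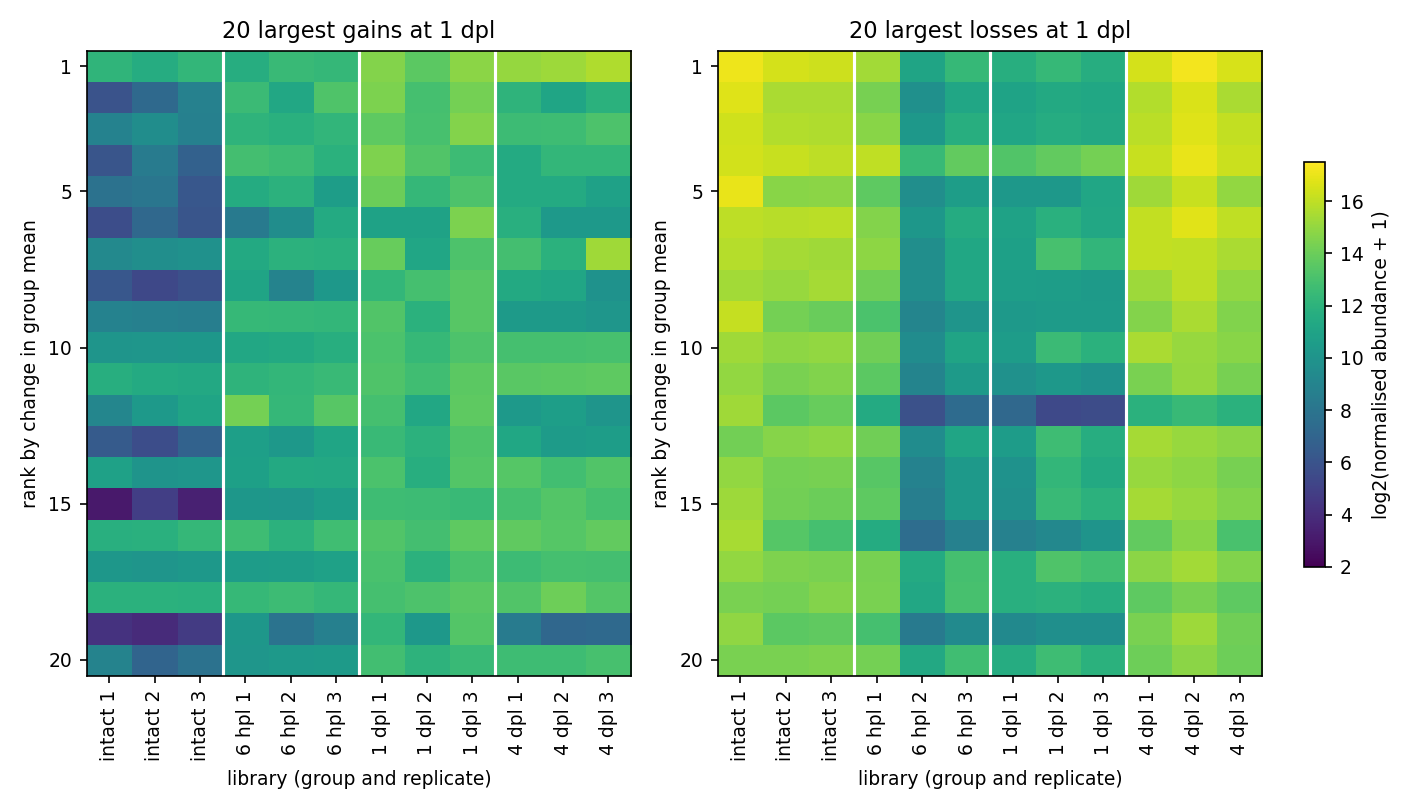
Abundance in each of the 12 libraries (columns, colour scale in log2 of normalised abundance plus 1) of the 20 called transcripts with the largest gain and the 20 with the largest loss in group mean at 1 dpl (rows, ranked by size of the change). The losses are low in the 3 libraries of 1 dpl and in 6 hpl replicates 2 and 3. At 4 dpl they are close to intact with 1 exception. The gains include rows that are highest at 1 dpl and rows that are highest at 4 dpl.

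The 20 largest called gains had more varied courses. They summed to 217979, 113988 and 253170 in the 1 dpl libraries and to 22712, 21042 and 24838 in the intact libraries. Replicate 2 was the lowest 1 dpl library in 16 of the 20. Log2 differences ran from 1.29 to 8.81, with a median of 4.34. In the group means, 10 of the 20 were still higher at 4 dpl than at 1 dpl, 9 were highest at 1 dpl and 1 at 6 hpl. All 20 remained above their intact mean at 4 dpl, from 103% to 56700% of it. Between 4 dpl and 6 hpl, limma called 7 of them higher and 2 lower, while 2.04% and 1.75% of all transcripts tested, and 7.45% and 4.73% of those with a mean of 1000 or more, were called so.

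Among the highest transcripts of each state, 64 of the 100 most abundant at 1 dpl were also among the 100 most abundant in intact iris, which is 64% of each list. Of the 100 highest at 1 dpl, 3 were called higher and 0 lower. Of the 100 highest in intact iris, 0 were called higher and 19 lower. The background among tested transcripts was 1.95% higher and 1.63% lower, and in the class at 1000 or more 195 were called higher and 125 lower of 3300. Of the 100 highest in intact iris, 27 had a 1 dpl mean under 25% of their intact mean, with no background share given. The median log2 difference of these 100 was -0.66, against -0.014 over all transcripts tested. They were ranked on the intact libraries, which favors falls. The 19 became 12 without 1 dpl replicate 1, 10 with a pseudocount of 0.1 and 6 with 0.01. Under the scaling on abundant transcripts, 21 were called lower. With intact replicate 1 and 6 hpl replicate 1 both left out, a setting chosen after seeing the data, 27 were called lower.

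By the rule for naming, 4 transcripts were singled out from 15088 higher and 12892 lower eligible ones. Transcript 4_29518536 had the largest positive log2 difference. It was at 3125, 1468 and 3370 in the 1 dpl libraries and at 2.17, 0 and 1.47 in the intact libraries. The groups were far apart, with a log2 difference of 10.29 (SE 0.43, limma adjusted p = 1.967e-10). Values were already between 165.7 and 224.9 at 6 hpl and reached 9341 to 22560 at 4 dpl, so that its level was higher at each successive time point without overlap. The difference between 4 dpl and 6 hpl was 6.14 log2 units (limma adjusted p = 3.821e-07).

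Transcript 7_56053696 had the largest negative log2 difference. It was at 6.13, 5.59 and 1.80 in the 1 dpl libraries and at 8000, 19390 and 20160 in the intact libraries. The log2 difference reached -11.49 (SE 1.56, limma adjusted p = 0.0002205). The 6 hpl values, which entered the same estimate of spread, were 5714, 3.73 and 4.93. At 4 dpl it was at 33260, 51100 and 33830, above every intact library. It ranked 123 by mean in intact iris and fell to rank 697236 at 1 dpl. Its 6 hpl level was thus near the intact range in replicate 1 and near the 1 dpl range in replicates 2 and 3.

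Transcript 7_55719526 had the largest gain in mean value among the remaining higher calls. It averaged 22030 ± 8340 at 1 dpl and 4179 ± 1000 in intact iris (SD, n = 3 each), a 5.27-fold ratio of means, with 25240, 12570 and 28290 against 4594, 3033 and 4911 in the single libraries. This gave a log2 difference of 2.34 (SE 0.39, limma adjusted p = 0.001618). Values of 3258 to 5876 at 6 hpl overlapped the intact ones, and at 4 dpl they lay between 33550 and 51460. The 1 dpl values were above all 6 hpl values as well, a difference that was not tested here.

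Transcript 2_12851316 had the largest loss in mean value among the remaining lower calls and was the 16th most abundant transcript of intact iris. It was at 3364, 5307 and 3213 in the 1 dpl libraries and at 142800, 91550 and 82640 in the intact libraries. The log2 difference was -4.73 with a standard error of 0.69 (limma adjusted p = 0.0004606). In 6 hpl replicate 1 it stood at 42120 and in replicates 2 and 3 at 2087 and 5426, and at 4 dpl it averaged 114300 ± 34400 (SD, n = 3). It is thus one of the group of losses that were again near their intact level at 4 dpl. The 2 transcripts chosen by mean value lost their calls with a pseudocount of 0.01 (limma adjusted p = 0.2362 for 7_55719526 and 0.1621 for 2_12851316).

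**Figure D4:**
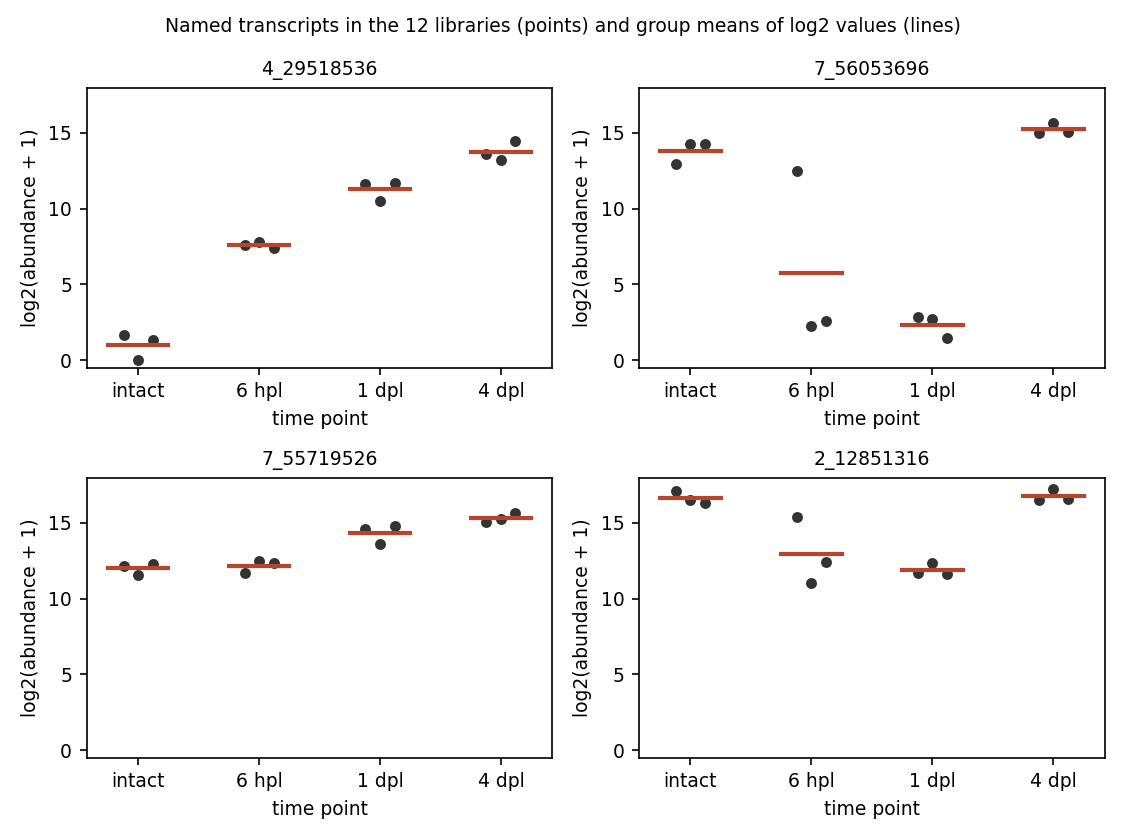
Log2 of normalised abundance plus 1 (y axis) of the 4 named transcripts by time point (x axis); points are the 3 libraries of a group and lines the means of their log2 values. 4_29518536 and 7_55719526 are higher at 1 dpl than in every intact library, and 7_56053696 and 2_12851316 are lower, with 6 hpl replicate 1 apart from the other 6 hpl libraries.

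The time course of the calls as a whole was read from the 6 hpl and 4 dpl libraries. Among the 16608 higher calls the median of the group means was 4.18 before injury, 17.3 by 6 hpl, 28.3 by 1 dpl and 22.0 by 4 dpl. Of these transcripts, 44.5% had their highest mean at 1 dpl, 32.2% at 4 dpl and 23.4% at 6 hpl, the first share being favored by selection on 1 dpl. Over all transcripts tested, where the intact mean could also be highest, these shares were 21.3%, 26.4% and 24.5%. The order differed by abundance. Among higher calls with a mean of 1000 or more, 49.7% were highest at 4 dpl and 36.4% at 1 dpl, while under 10 these shares were 26.9% and 47.7%.

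For the 13858 lower calls the medians were 26.2 before injury, 6.84 by 6 hpl, 2.16 by 1 dpl and 5.43 by 4 dpl. The lowest mean was at 1 dpl in 75.9%, at 4 dpl in 17.6% and at 6 hpl in 6.56%. Selection on low 1 dpl values favored the first share. Over all transcripts tested, where the intact mean could also be lowest, the shares were 21.6%, 27.1% and 24.6%. Between 100 and 1000, 48.9% were lowest at 1 dpl and 46.8% at 4 dpl. At 1000 or more, 80.8% were lowest at 1 dpl, and in 40 of 125 (32%) the 4 dpl mean exceeded the intact mean and every other group mean. Over all transcripts tested, 26.4% had their highest mean at 4 dpl. There the 1 dpl mean could also be highest, which selection prevented among the lower calls. The 32% can thus not be read as an excess over the 26.4%.

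The contrast of 4 dpl minus 6 hpl compared libraries that enter neither group mean of 1 dpl against intact iris. It called 3.79% of all transcripts tested, 2.04% higher and 1.75% lower. Among the transcripts called higher at 1 dpl, 20.1% were called higher at 4 dpl than at 6 hpl and 9.75% lower. Among those called lower at 1 dpl, 5.47% were called higher and 7.73% lower. All 4 shares lay above those of all transcripts tested. The balance among the lower calls was not stable. Their 758 higher and 1071 lower became 762 and 425 without 6 hpl replicate 1, and 1028 and 779 without a variance trend. In the other alternatives that held this contrast, lower stayed ahead. Both contrasts use the same estimate of spread, so a transcript with a small spread is more readily called in both. By abundance, the lower calls at 1000 or more had 33.6% higher and 13.6% lower between 4 dpl and 6 hpl, against 7.45% and 4.73% of all transcripts in that class. The lower calls between 100 and 1000 had the opposite balance, with 4.80% higher and 33.5% lower, against 5.47% and 4.79%. These shares by class come from the full fit only and were not computed without 6 hpl replicate 1. In all, 6788 transcripts were called in both contrasts, and 4475 without 1 dpl replicate 3, 4126 without intact replicate 2 and 4347 without 6 hpl replicate 1.

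Some transcripts were listed at 0 in every library of one group. Because a listed 0 can also come from an estimate that failed, it was not taken as absence. These transcripts were tested on log2(value + 1) like the others, and their log2 differences depend on the pseudocount of 1 and are no folds. At 1 dpl, 6402 transcripts (0.752% of those tested) were listed at 0 in all 3 libraries while all 3 intact libraries were at 1 or more. The reverse, 1 dpl libraries all at 1 or more and intact libraries all at 0, was found for 1256 (0.148%). Of the 6402, 3527 were called lower, and of the 1256, 795 were called higher. Over all transcripts tested, 1.63% were called lower and 1.95% higher. Members of both sets passed the detection rule only through the group where they were detected. Their direction was thus fixed by selection, and these counts are a description. With a value of 5 in place of 1 the numbers were 1428 and 324. The median of the intact means was 14.6 for the 6402, against 8.61 over all transcripts tested. The median of the 1 dpl means was 6.64 for the 1256, against 8.47 over all transcripts tested. Of the 6402, 989 were at 1 or more in all 6 hpl libraries and 841 in all 4 dpl libraries. Of the 1256, these numbers were 756 and 726. The highest 1 dpl mean among the 1256 was 447.5, and the highest intact mean among the 6402 was 14400. Among the 1428 at 5 or more in all 3 intact libraries, the highest intact mean was 519.3. The transcript at 14400 was thus under 5 in at least 1 intact library, so its mean does not describe all 3.

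Direction at 1 dpl went with the first digit of the transcript ID. Higher calls made up 8.64% of the calls with digits 1 or 2, 65.0% with 3 or 4 and 94.8% with 5 or 6. They made up 73.4% with 7 or 8 and 92.2% of 268 calls with 9. For digits 1 or 2 the share was 13.7% without 1 dpl replicate 2, 19.1% without intact replicate 2 and 20.9% without intact replicate 3. IDs with digits 1 or 2 were 25.4% of the transcripts tested and 69.1% of the lower calls, and those with 5 or 6 were 22.7% of the transcripts tested and 42.5% of the higher calls. Among transcripts with a mean of 100 or more the difference was smaller, with 34.3% higher for digits 1 or 2 and 87.8% for 5 or 6. Under the scaling on abundant transcripts the shares over all calls were 6.42% and 91.6%. Transcripts that were not called shifted too. The median log2 difference of all tested transcripts was -0.589 for digit 1 and 0.492 for digit 5. For the other digits it lay between -0.267 and 0.145. The authors assembled the reads of each condition separately before merging, but what the digit stands for is not given in the sources used here. Its part in the counts and directions was not tested.

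**Figure D5:**
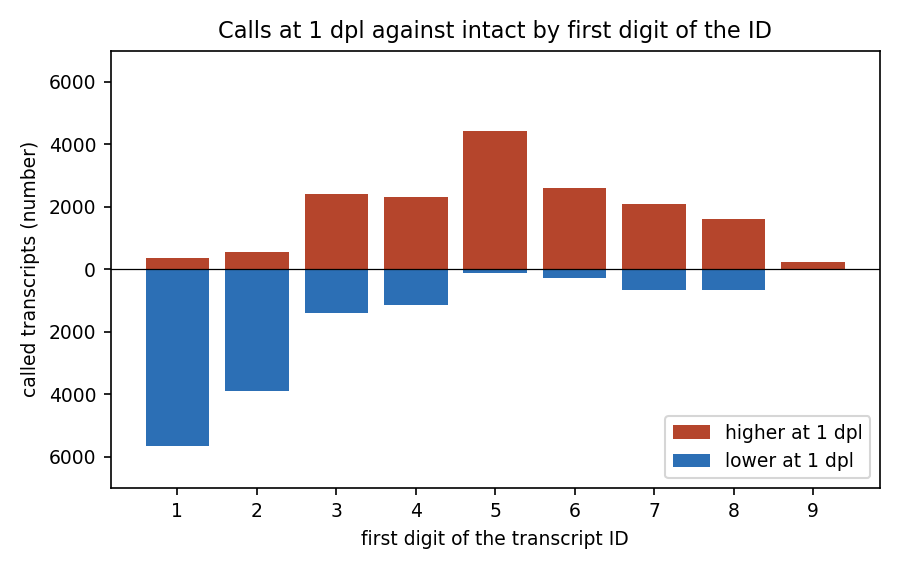
Number of called transcripts (y axis, higher at 1 dpl upward in red and lower downward in blue) by the first digit of the transcript ID (x axis). Digit 1 has 346 higher and 5673 lower calls, and digit 5 has 4439 higher and 117 lower ones.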

How the data were processed

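The authors trimmed reads with Trim Galore, removed ribosomal reads with Bowtie2, assembled each condition with Trinity and merged the assemblies with DRAP. They estimated transcript abundance with Salmon and averaged it over inferential replicates, with no versions given in the sources used here. The deposited signal, called TPM by the authors, summed to far more than 1000000 per library and was treated as a normalised abundance. It keeps no read depth, so no counting intervals were computed.

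Samples were grouped by labelled time point. In R 4.3.3, log2(value + 1) was fitted by limma 3.58.1 (group means of all 12 libraries, empirical Bayes with a variance trend, two-sided, Benjamini-Hochberg threshold 0.05), for transcripts reaching 1 in 3 or more of the 6 compared libraries, which left out 4968. The study's own test, Swish, needs inferential replicates, which were not used here. P-values measure the spread between pooled libraries. Log2 differences understate change at low values. The method was tested on simulated data.

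The naming rule took calls whose mean of both groups reached 5 and that had no overlap of the 3 and 3 values: the largest positive and negative log2 differences, then the largest gain and loss in mean. Lists of genes and cell type markers could not be used without names. The alternatives were other pseudocounts, filters, scalings, variance models, weights, a replicate block and the omission of libraries. Libraries were also scaled by their median ratio over transcripts with a mean of 100 or more. The comparison and its rules were chosen with earlier results of these data known.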

Additional observations from a re-analysis of the deposited data

How the results depend on the processing

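The number of calls at 1 dpl against intact (30466) stayed within 1.5 times in 9 of 20 alternatives. It was 20287 with a pseudocount of 0.1, 15257 with 0.01, 3936 when only transcripts with a mean of 100 or more were tested, 19906 with only the 6 libraries compared and 10667 with libraries scaled to a sum of 1000000, where fewer transcripts passed the filter. Omitting 1 library gave 13727 to 26651 calls, and omitting intact replicate 1 and 6 hpl replicate 1 together 13387. The last setting and the omission of 6 hpl replicate 1 alone were chosen after seeing the data. Higher calls (54.5%) lost their majority without a variance trend (49.3%), with the scaling on abundant transcripts (45.6%) and without 1 dpl replicate 1 (45.7%), and ranged up to 74.2% with 1 library omitted. Calls shared with 4 dpl against 6 hpl (6788) were 4003 and 3188 with pseudocounts of 0.1 and 0.01, 1729 with the filter at 100, 3813 with sums of 1000000, 3187 without both libraries and 4126 to 6759 with 1 omitted. The difference in library sums (157000) ran from -1550000 to 3030000 with 1 library omitted. The cause was not tested for these.

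Of the 4 named transcripts, 4_29518536 and 7_56053696 kept their calls under all 20 alternatives, with log2 differences of 6.20 to 12.93 and of -11.93 to -8.60. Transcripts 7_55719526 (2.12 to 2.71) and 2_12851316 (-4.96 to -4.49) kept them under 19 of 20. Since they were picked for extreme values in these data, this says little about other transcripts. Of the 20 largest called losses, 7 kept their call with a pseudocount of 0.01 and 12 without 1 dpl replicate 1. Of the 20 largest called gains, 13 and 17 did. The replicate numbers were not taken as pairs. Deviations of same-numbered 1 dpl and intact libraries correlated at -0.188, 0.0489 and -0.126, and a replicate block gave 29276 calls. Without values for differently numbered libraries, these correlations cannot show whether same-numbered libraries share a batch.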

Other observations

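Pairs of IDs with the same first digit and numbers that differ by 1 were compared. Of 34075 such neighbouring pairs, the first transcript was called at 1 dpl in 1620, and in 617 of these (38.1%) the second was called too, 599 in the same direction and 18 in the opposite one. Over all transcripts tested 3.58% were called. Both members of a pair share the first digit, which went with direction. Higher calls made up 5.75% of the calls with digit 1 and 97.4% with digit 5. The shared digit thus favors the same direction within a pair. Log2 differences of neighbours correlated with r = 0.527 across pairs that share libraries, which is a description.

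Among the 16608 transcripts higher at 1 dpl, 13 had a single 1 dpl library at 10 times or more the mean of the other 2. Among the 13858 lower ones, 2438 had a single intact library at 10 times or more the mean of the other 2. Over all transcripts tested, 4263 had such a 1 dpl library and 6221 such an intact library.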
